A study of Mus musculus with 3 samples.

Results

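Cardiomyocyte preparations from neonatal mouse hearts were set against cardiomyocyte preparations from embryonic mouse hearts, across all genes and gene families. The neonatal preparation came from postnatal day 3 to 4 and the embryonic one from embryonic day 11 to 12. Both came from animals whose strain label reads eGFP α-MHC on DBA, α-MHC being the product of Myh6. The RNA of several hearts was pooled for each age and read on 1 Illumina bead array, so each age has 1 value and no replicate. A Liberase enzyme blend was used to dissociate the hearts, and the design text speaks of FACS without a gate in the sources used here, so the cells that were kept are not given. A probe belonged to the comparison where its deposited detection score was above 0.99 in the neonatal or the embryonic array. That held for 16967 of 46632 probes (36.4%), of which 12454 were detected in both arrays, 2901 in the neonatal array alone and 1612 in the embryonic array alone. Just inside the limit, at a score of 0.99002, lay 475 of these probes with raw signals of 121.1 to 139.7. Just outside it, at 0.98939, lay 20 probes that were left out, with raw signals of 120.6 to 127.2.

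A heart muscle cell of the midgestation embryo beats while it still divides, and it draws much of its energy from glucose and lactate. Around birth, mouse cardiomyocytes leave the cell cycle, enlarge, turn to fatty acids and oxidative phosphorylation, and replace embryonic isoforms of their contractile proteins with adult ones. Over the same period the heart gains fibroblasts, vessels and macrophages, and fibroblasts lay down collagen and elastic fibres between the muscle cells.

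Raw signals are bead intensities on a linear scale as deposited. The log2 difference is neonatal minus embryonic after background correction and quantile normalization. The value after ± beside a raw signal or a difference is the standard error from the spread between the beads of a probe. It leaves out the spread between animals, preparations and hybridisations, and no difference below was tested. A gene counts as higher or lower where the difference was at least 2-fold. Where only 1 array detected a gene, the fold is given as a lower bound, written "at least". It was computed against the lowest detected level on the other array, or against the gene's own level there where that was higher. A member is measured where at least 1 of the arrays detected it. Signals of different probes are not compared with each other.

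In all, 10564 of the 20974 named genes on the array were measured, 8508 of them in both arrays, 1455 in the neonatal array alone and 601 in the embryonic array alone. In the neonatal array 1854 measured genes (17.6%) were higher and 1820 (17.2%) were lower, or 34.8% apart in either direction. Among genes detected in both arrays, 1177 (13.8%) were higher and 1510 (17.7%) lower. The differences were not symmetric in size. Over 8-fold, 398 genes (3.77%) were higher and 114 (1.08%) lower, and over 32-fold 87 (0.824%) were higher and 6 (0.0568%) lower. The median difference over all measured genes was -0.10, with quartiles of -0.72 and 0.62. Centring each array on its median in place of quantile normalization moved that median to 0.10, and the calls to 2298 higher and 1457 lower, so the share of calls that were higher was 61.2% with centring and 50.5% as reported. Directions below are therefore relative to the bulk of genes on each array. The median bead standard error of a difference was 0.094 and its 90th percentile 0.143, so a 2-fold difference lies well above it. Each of the 2687 genes that were detected in both arrays and at least 2-fold apart exceeded 2 bead standard errors. So did 7006 (82.3%) of all 8508 genes detected in both arrays, and this does not set the 2-fold calls apart.

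**Figure D1:**
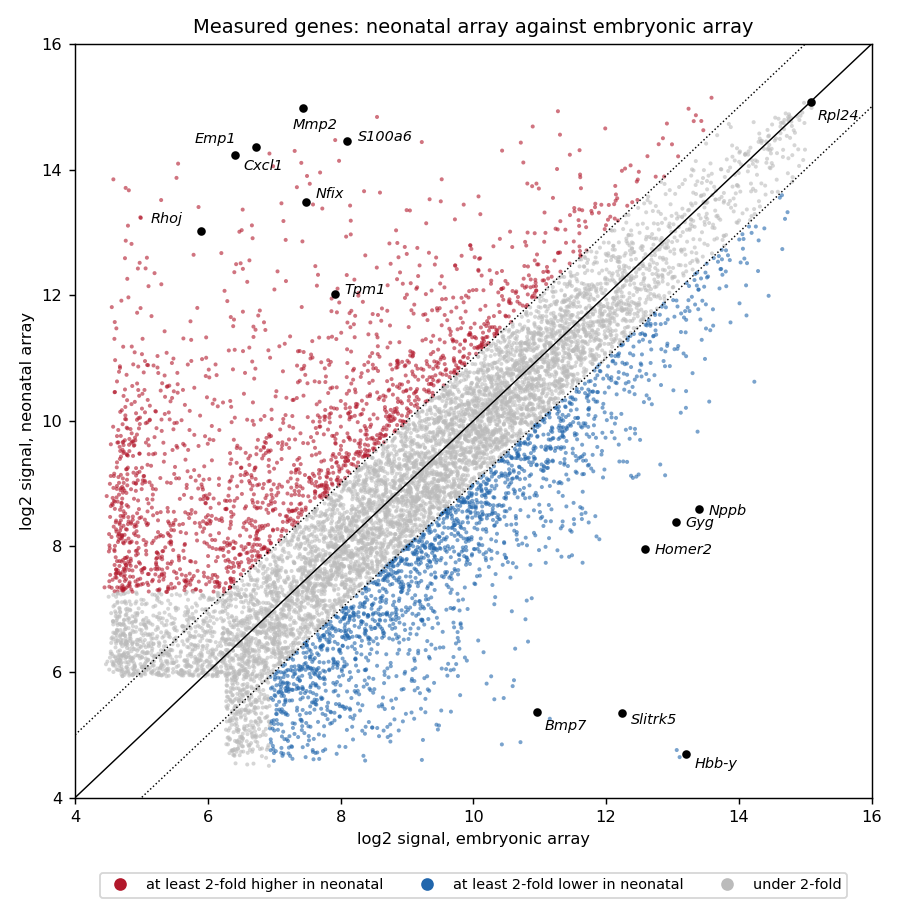
Each point is a measured gene, with its normalized log2 signal in the embryonic array on the horizontal axis and in the neonatal array on the vertical axis; dotted lines mark 2-fold, and grey points beyond them were detected in 1 array with a bound under 2-fold. Red points (1854) lay 2-fold or more above the diagonal and blue points (1820) as far below it, and the cloud reaches farther above the line (Cxcl1, Emp1, Mmp2) than below it (Nppb, Gyg, Homer2).

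The label of cardiomyocytes was checked against marker lists. All 16 cardiomyocyte markers on the array were detected in both preparations, with a summed raw signal of 200221 in the neonatal array and 330513 in the embryonic array. Of 12 fibroblast markers the neonatal array detected 11 and the embryonic array 4, with sums of 130919 in neonatal and 6122.3 in embryonic. Col1a1, Col1a2, Lum, Postn, Dpt, Ddr2 and Thy1 were among those not detected in the embryonic array. Of 14 macrophage markers, 12 were detected in the neonatal and 3 in the embryonic array (sums 28153.2 in neonatal, 1587.1 in embryonic). Endothelial markers were detected for 10 of 11 in the neonatal and 4 of 11 in the embryonic array, and Pecam1, Cdh5, Tek and Vwf were not detected in the embryonic preparation. Of the 10 endothelial markers measured, 6 were higher, 0 lower and 4 under 2-fold. Smooth muscle and pericyte markers numbered 8 of 9 in neonatal and 5 of 9 in embryonic, with sums of 43640.0 in neonatal and 26749.0 in embryonic. Of the 8 measured, 5 were higher, 1 lower and 2 under 2-fold, and the 5 detected in both arrays had a median difference of 0.08. Erythroid markers ran the other way, with 4 of 9 in the neonatal and 8 of 9 in the embryonic array and sums of 30182.4 in neonatal and 65325.4 in embryonic. Epicardial markers were detected for 5 of 8 in neonatal and 4 of 8 in embryonic, and of the 6 measured 3 were higher and 2 lower. Neutrophil markers were detected for 4 of 6 in neonatal and 1 of 6 in embryonic, and lymphocyte markers for 2 of 5 in neonatal and 0 of 5 in embryonic. Neural and Schwann cell markers were detected for 3 of 6 in neonatal and 1 of 6 in embryonic. The part of these cell types in the differences below was not tested, and in bulk RNA fewer cells of a type and less RNA per cell cannot be told apart.

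The genes farthest apart in the neonatal direction included several for secreted and membrane proteins. Cxcl1, a chemokine that attracts neutrophils, had a raw signal of 21408.5 ± 648 in the neonatal array, against 128.3 ± 7.24 in the embryonic array. Emp1, a small membrane protein of epithelia, read 22873.9 ± 797 in the neonatal array, against 149.7 ± 6.78 in the embryonic array, a difference of 7.63 ± 0.11. Rarres2, the precursor of the chemoattractant adipokine chemerin, was at 10529.8 in the neonatal and 132.5 in the embryonic array. Ramp2, which turns the calcitonin-like receptor into a receptor for adrenomedullin, was 84.7-fold higher (neonatal 18139.5, embryonic 226.7). Mgp, an inhibitor of calcification made by smooth muscle and cartilage, was at 16430.9 in the neonatal and 206.7 in the embryonic array, and Mfap4, a microfibril-associated protein, at 10704.6 in the neonatal and 135.1 in the embryonic array. Among genes that the neonatal array alone detected, Cygb, for the oxygen-binding protein cytoglobin, was at least 140.1-fold higher, and Prelp, for a matrix proteoglycan of the leucine-rich family, at least 173-fold higher. In the embryonic array all of these genes were dim or not detected.

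In the other direction the genes farthest apart included regulators and metabolic enzymes of muscle. Gyg, for glycogenin, the protein primer on which glycogen is built, had a raw signal of 498.9 ± 24.8 in the neonatal array, against 9706.6 ± 529 in the embryonic array. Homer2, a scaffold protein that binds calcium-signalling receptors, read 385.2 ± 18.2 in the neonatal array, against 6901.4 ± 168 in the embryonic array. Lpar3, a receptor for lysophosphatidic acid, was at 167.4 in the neonatal and 2009.2 in the embryonic array, and Upp1, for uridine phosphorylase, was 19.1-fold lower. Pkp2, for plakophilin 2 of the desmosome, at 433.2 in the neonatal and 4087.8 in the embryonic array, was 13-fold lower. Nebl, for nebulette, a Z-disc protein of heart, was 14.3-fold lower. Bex4, Armh4, Cfap20dc and Nipsnap1 were lower, with log2 differences of -3.76, -3.78, -3.72 and -3.70. The embryonic array alone detected Slitrk5, for a transmembrane protein of the neuronal synapse (neonatal 96.5 (not detected), embryonic 5403.0), which was at least 79.4-fold lower. It also alone detected Cited1, a transcriptional co-regulator, and Rec114, known for meiotic recombination, which were at least 27.4-fold and at least 25.6-fold lower.

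The 10 brightest genes with a difference under 0.1 included Rpl24 at 36312.0 in the neonatal and 37458.1 in the embryonic array, and Ubb, for ubiquitin, at 35696.7 in the neonatal and 35223.3 in the embryonic array. Rps14 and Eef1g differed by -0.05 and -0.07. Their raw signals lay near the highest on each array, which were 37149.0 in the neonatal and 39259.2 in the embryonic array.

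Families of the contractile apparatus differed in direction. In the troponins, the calcium switch of the thin filament, 0 of 7 measured members were higher and 5 lower, with a median difference of -1.15, against 17.6% higher and 17.2% lower of all measured genes. The fast skeletal troponin I gene Tnni2 had a raw signal of 338.1 ± 15.8 in the neonatal array, against 3513.7 ± 99.5 in the embryonic array, and the slow skeletal Tnni1, the troponin I of the embryonic heart, read 796.3 ± 29 in the neonatal array, against 6238.4 ± 225 in the embryonic array. The slow troponin T gene Tnnt1 was at 2763.1 in the neonatal and 13277.8 in the embryonic array. The cardiac genes Tnni3, Tnnt2 and Tnnc1 differed less, by -1.03 ± 0.043, -0.86 ± 0.088 and -0.45 ± 0.076. Of the named troponins, the skeletal genes lay farther from 0 than the cardiac ones. Tropomyosins, which lie along actin and set the access of myosin, moved the opposite way, and 4 of 4 measured members were higher and 0 lower, with a median difference of 2.64. Tpm1 read 5593.4 ± 216 in the neonatal array, against 292.0 ± 11 in the embryonic array, Tpm4 18214.2 ± 819 in the neonatal array, against 3422.4 ± 118 in the embryonic array and Tpm3 5929.0 ± 218 in the neonatal array, against 1521.5 ± 76.8 in the embryonic array. Tpm2 read 16985.1 ± 308 in the neonatal array, against 1994.6 ± 80.5 in the embryonic array by its brightest probe, while another of its probes gave a log2 difference of -3.11. Each tropomyosin gene was counted from 1 probe, and the transcript that the probe reads is not given.

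Of the myosin heavy chains, 4 of 7 measured members were higher and 2 lower, with a median difference of 1.06. Myh6 and Myh7, the α and β chains of heart, had raw signals of 1162.3 in the neonatal and 3009.2 in the embryonic array for Myh6 and 8869.1 in the neonatal and 28156.6 in the embryonic array for Myh7, and were lower, with log2 differences of -1.73 ± 0.12 and -1.92 ± 0.084. Myh9, a non-muscle chain, was 4.18-fold higher, Myh11, of smooth muscle, at least 19.8-fold higher, and Myh10, another non-muscle chain, differed by 0.025. The developmental skeletal chains Myh3 and Myh8, detected in the neonatal array alone, were at least 2.08-fold and at least 2.46-fold higher. Over the members detected in both arrays the list's median was -0.85. Of the light chains 0 of 9 measured members were higher and 2 lower, with a median difference of -0.40. Mylpf, the regulatory light chain of fast skeletal muscle, was at 127.6 in the neonatal and 970.7 in the embryonic array, and Myl9, of smooth muscle and non-muscle cells, at 7096.1 in the neonatal and 17160.6 in the embryonic array, while the ventricular Myl2 and Myl3 differed by -0.25 and -0.43. Among the actins, the smooth muscle gene Actg2 was at least 82.7-fold higher and the skeletal gene Acta1 12.2-fold lower. The cardiac gene Actc1 differed by -0.58 and the smooth muscle gene Acta2 by 0.08. Stress and ankyrin repeat genes of muscle had 0 higher and 7 lower of 14 measured (median -1.36). The titin-binding Ankrd1 read 1761.6 ± 55.7 in the neonatal array, against 13879.5 ± 467 in the embryonic array, and Smpx, a small protein of stretched muscle, 180.1 ± 8.88 in the neonatal array, against 967.4 ± 38.4 in the embryonic array. The small heat shock genes Hspb3 and Hspb2 were 12.4-fold and 5.83-fold lower.

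Annexins, which bind phospholipid when calcium rises, had 6 higher and 0 lower of 7 measured (median 1.70). Anxa1 was at 3873.8 in the neonatal and 55.5 (not detected) in the embryonic array, Anxa3 at 12663.0 in the neonatal and 1213.9 in the embryonic array and Anxa4 at 1618.8 in the neonatal and 168.5 in the embryonic array. Anxa6 was the member with the smallest difference, 0.66 ± 0.064. The S100 proteins, calcium-binding partners of annexins among others, had 6 higher and 1 lower of 8 measured (median 3.03). S100a6 read 24398.0 ± 657 in the neonatal array, against 327.0 ± 12.2 in the embryonic array and S100a10, the partner of annexin A2, 15594.2 ± 657 in the neonatal array, against 448.8 ± 26.9 in the embryonic array. S100a1, the S100 gene of heart muscle, was the exception at 480.8 in the neonatal and 1407.7 in the embryonic array. Filamins, spectrins and ankyrins had 2 higher and 2 lower of 9 measured (median 0.43). Flna, a widely expressed filamin that crosslinks actin, was 13.9-fold higher, whereas Flnc of striated muscle was 2.40-fold lower and Ank3, for ankyrin G, 8.54-fold lower. Keratins had few measured members, 8 of 51. Of these Krt8 and Krt18, a filament pair of simple epithelia, were 3.33-fold and 4.37-fold lower, and Krt19 was at least 4.93-fold lower.

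**Figure D2:**
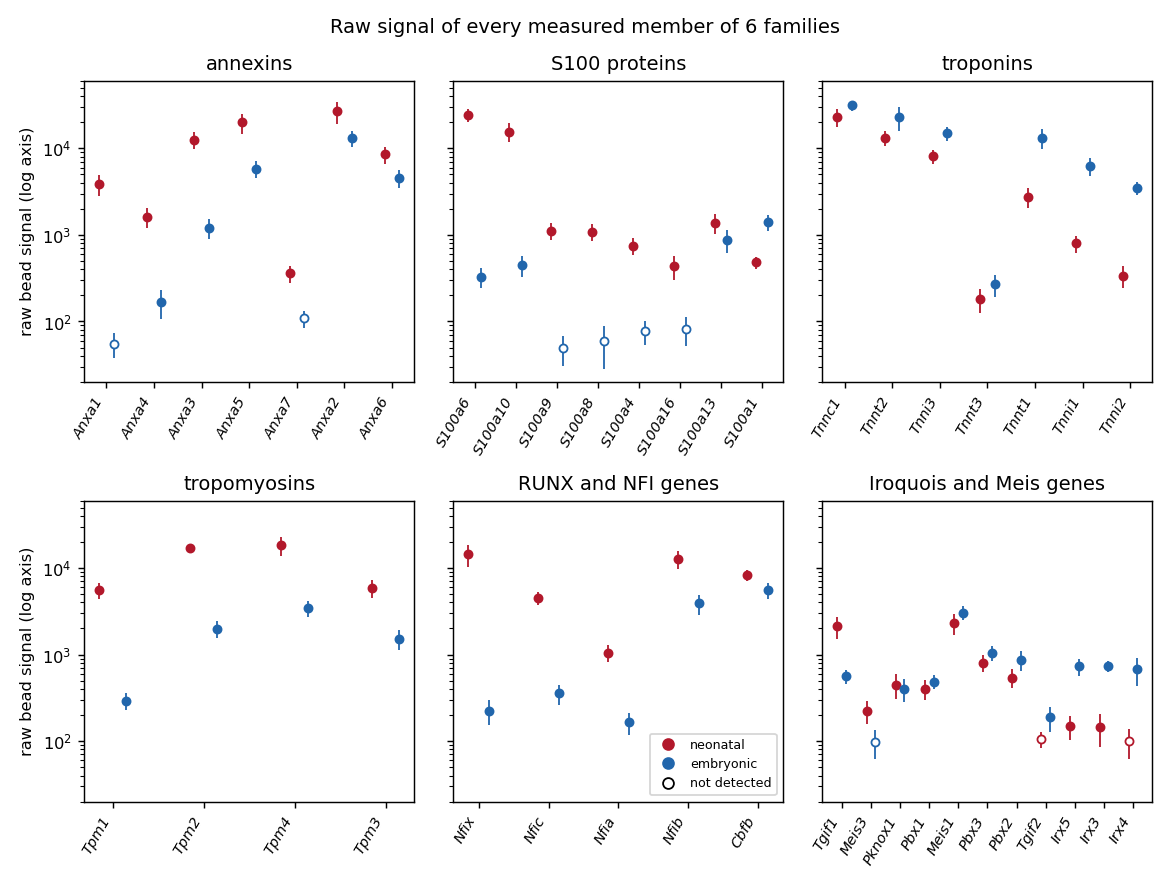
Raw bead signal (log axis) of every measured member of 6 families, neonatal in red left of embryonic in blue, with the SD between beads as bars; open circles were not detected. Tropomyosins and nuclear factor I genes lie higher in the neonatal array, troponins and the 3 Iroquois genes lower, and S100a1 runs against the other S100 genes.

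Families of the extracellular matrix were among those with the highest medians, beside the summed fibroblast markers at 130919 in the neonatal and 6122.3 in the embryonic array. Elastic fibre genes had 15 higher and 0 lower of 20 measured (median 3.92), the highest median of the 185 families with 3 or more measured members. Eln, for elastin, was at 24688.4 in the neonatal and 292.0 in the embryonic array, and Lox, the enzyme that crosslinks elastin and collagen, at 13237.2 in the neonatal and 136.1 in the embryonic array. Fbn1, the main fibrillin of microfibrils, was 75.5-fold higher, whereas Fbn2, the fibrillin that leads in the embryo, was measured in the neonatal array alone with a bound under 2-fold. Ltbp2, Ltbp3 and Ltbp4, which hold latent TGF-β in the matrix, were at least 63.4-fold, 15.7-fold and at least 125-fold higher, while Ltbp1 differed by -0.26 ± 0.13. Emilin2, an elastic fibre glycoprotein, differed by -0.84 ± 0.079, the most negative member.

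Collagens had 22 higher and 2 lower of 30 measured (median 2.81). Besides the fibrillar genes, the network-forming Col8a1 was 17.2-fold higher and the basement membrane zone gene Col15a1 at least 96.6-fold higher. The lower ones were Col2a1, the fibrillar collagen of cartilage and of embryonic heart valves, at 108.3 (not detected) in the neonatal and 1559.7 in the embryonic array, and Col4a6, a basement membrane chain, at 845.0 in the neonatal and 2381.7 in the embryonic array. Small leucine-rich proteoglycans, which bind collagen fibrils and growth factors, had 8 higher and 0 lower of 12 measured (median 2.60). Only 1 member of this list, which was higher, was detected in both arrays, so the count and median rest mostly on bounds. In the list Bgn, for biglycan, was at least 124-fold higher, Ogn, for osteoglycin, at least 24.6-fold higher and Aspn, for asporin, at least 17.4-fold higher. Matricellular genes, whose products signal from the matrix, had 17 higher and 0 lower of 20 measured (median 2.93). Thbs2, for thrombospondin 2, was at 20452.8 in the neonatal and 215.3 in the embryonic array, Tnxb, for tenascin X, was at least 114-fold higher, and Ccn4, Spon1 and Ccn2 differed by -0.63, 0.39 and 0.62. Laminins, the trimers of basement membranes, had 5 higher and 1 lower of 8 measured (median 1.41). The chains Lama2, Lamb2 and Lamc1, which together form the laminin of muscle, were higher, with log2 differences of 2.77, 2.01 and 1.60. Integrins, the receptors for these proteins, had 6 higher and 2 lower of 13 measured (median 0.98), with Itga8 at least 11-fold higher and the laminin receptor chains Itga6 and Itga3 lower, with log2 differences of -1.51 and -1.35.

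Proteases that cut the matrix were mostly higher, with exceptions in each class. Matrix metalloproteases had 8 higher and 1 lower of 12 measured (median 1.95). Mmp14, the membrane-type protease that activates pro-MMP2, was at 20480.2 in the neonatal and 1915.1 in the embryonic array, and Mmp15, another membrane-type member, at 185.4 in the neonatal and 388.5 in the embryonic array. ADAMTS proteases had 12 higher and 2 lower of 18 measured (median 1.66). Adamts2, which removes the N-propeptide of procollagen, was at least 168-fold higher, Adamts12 67.1-fold higher, and Adamts6 and Adamts3 were lower, with log2 differences of -2.25 and -1.26. Timp2 and Timp3, inhibitors of these enzymes, were 7.09-fold and 3.10-fold higher, and Timp1 differed by 0.78. Of the serpins, 6 higher and 1 lower of 12 measured (median 1.17), Serpinf1, for pigment epithelium-derived factor, was 65.9-fold higher. Cathepsin genes had 5 higher and 1 lower of 10 measured (median 1.20), with Ctsk, a collagen-cutting lysosomal protease, 28.1-fold higher and Ctsa 4.00-fold lower.

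The machinery that modifies collagen in the endoplasmic reticulum was higher only in part. Prolyl and lysyl hydroxylase genes and their partners had 6 higher and 1 lower of 15 measured (median 0.80). P3h3, for a collagen prolyl 3-hydroxylase, was 48.9-fold higher, Plod1 and Plod3, for lysyl hydroxylases, 2.86-fold and 2.81-fold higher, and Egln1, an oxygen-sensing prolyl hydroxylase that acts on HIF, was 3.38-fold lower. Peptidyl-prolyl isomerases had 6 higher and 4 lower of 19 measured (median 0.19). The higher ones included Fkbp14, Fkbp10, Fkbp11 and Fkbp7, which reside in the endoplasmic reticulum and had log2 differences of 2.07, 1.98, 1.94 and 1.83. The lowest differences were of Ppig, Ppih, Ppil1 and Ppil6, of which Ppih and Ppil1 work in the spliceosome and differed by -1.60 and -1.36. Coat and translocon genes of the general secretory pathway had 10 higher and 8 lower of 71 measured (median 0.12), or 14.1% and 11.3%, below the shares over all genes.

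**Figure D3:**
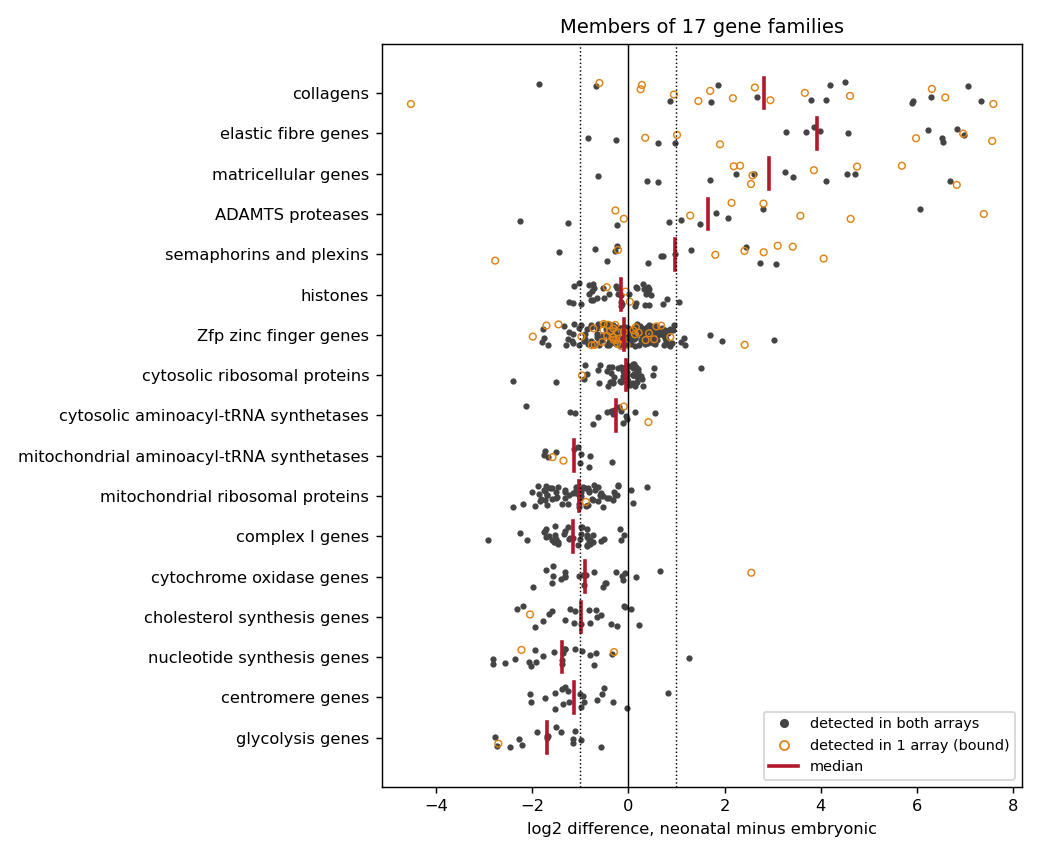
Log2 difference of each measured member (points, jittered vertically) of 17 families, with the family median in red and 2-fold marked by dotted lines; open points were detected in 1 array and are set at their bound, which can lie on the other side of 0 for dim genes and then gives no fold. Collagen, elastic fibre and matricellular genes spread over several log2 units above 0, while histone, Zfp and cytosolic ribosomal genes lie close to 0 and mitochondrial, sterol, nucleotide and glycolysis genes lie mostly below it.

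Growth factor pathways were mixed, and members of the same pathway often lay on opposite sides. In the TGF-β group, where ligands assemble pairs of receptor kinases that phosphorylate Smads, 5 of 14 were higher and 3 lower. The ligand Tgfb3 was 8.23-fold higher and Tgfb2 differed by -0.23. The receptor Tgfbr2 was at 7470.3 in the neonatal and 243.9 in the embryonic array, whereas its partner Tgfbr1 differed by 0.17. The activin receptors Acvr2b and Acvr1b were lower, with log2 differences of -1.98 and -1.18. Of the BMP genes, 8 higher and 5 lower of 20 measured (median 0.69), Bmp7 was detected in the embryonic array alone (neonatal 97.2 (not detected), embryonic 2230.8) and was at least 32.7-fold lower. Gdf10 was 49.1-fold higher, Bmp1, the procollagen C-proteinase that despite its name is no BMP ligand, 13.3-fold higher, and the antagonist Chrd at least 11.8-fold higher. The embryonic array alone detected Fstl4, a follistatin-like gene, which was at least 7.36-fold lower.

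The insulin-like growth factor system, with 5 higher and 4 lower of 13 measured (median -0.20), also had members on both sides. The ligand Igf1 was 6.73-fold higher, and Igf2 differed by -0.20 ± 0.091. Of the binding proteins that hold the ligands, Igfbp7 was at 24280.1 in the neonatal and 679.2 in the embryonic array and Igfbp4 at 10280.3 in the neonatal and 338.2 in the embryonic array, whereas Igfbp2 was at least 11.7-fold lower. Igf2bp1, an RNA-binding protein of embryonic tissues, was 10.2-fold lower. In the PDGF and VEGF family, 7 higher and 3 lower of 17 measured (median 0.84), the receptor genes Pdgfra and Pdgfrb were 32.8-fold and at least 27.6-fold higher. The ligand Pdgfa was lower, with a log2 difference of -1.15, Pdgfc was at least 3.55-fold lower and Vegfb 2.10-fold lower, and Vegfa differed by -0.70. Fibroblast growth factors and receptors had 0 higher and 2 lower of 9 measured (median -0.05), and the lower ones were Fgf9, a ligand of the epicardium and endocardium, and Fgf13, an intracellular modulator of sodium channels, which were at least 5.64-fold and 6.73-fold lower.

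In the Notch pathway, through which neighbouring cells signal by contact, 7 of 14 measured members were higher and 1 lower, with a median difference of 0.98. The receptors Notch1 and Notch3 were at least 20.03-fold and 18.5-fold higher. Among the target genes, Heyl was at least 23.7-fold higher and Hey1 3.26-fold higher, but Hey2, the member of ventricular muscle, was at 353.4 in the neonatal and 1594.9 in the embryonic array and 6.40-fold lower. Wnt ligands were sparse, with 5 of 19 measured. Wnt9a and Wnt5b were 8.11-fold and at least 4.81-fold higher, and Wnt2 and Wnt5a 4.59-fold and 2.46-fold lower. The Wnt antagonist Sfrp2 was 39.6-fold higher. Semaphorins and plexins, guidance ligands and receptors, had 10 higher and 2 lower of 21 measured (median 0.97). Plxnd1, the plexin of endothelium, was at least 16.7-fold higher, Sema3f and Sema3d at least 10.7-fold and at least 8.62-fold higher, and Sema3a at least 6.83-fold lower. Ephrins and their receptors had 1 higher and 2 lower of 15 measured (median 0.05), below the background in each direction, with Efnb3 at least 8.83-fold lower as the farthest. RGS proteins, which end G protein signals, had 6 higher and 1 lower of 12 measured (median 1.73), with Rgs5 of pericytes at least 71.1-fold higher and Rgs6 lower, with a log2 difference of -1.16.

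The families of inflammation and immune cells given here had larger shares of members higher than the 17.6% of all measured genes. Several members were not detected in the embryonic array, and a gene detected in the neonatal array alone can hardly count as lower. Among members detected in both arrays, 4 of 10 interleukin and receptor genes and 3 of 4 NF-κB genes were higher, with 0 lower. So were 8 of 12 FOS, JUN and EGR genes, with 1 lower, and 3 of 5 interferon regulatory factors, with 0 lower. Of all genes detected in both arrays, 13.8% were higher. Summed macrophage markers were 28153.2 in the neonatal and 1587.1 in the embryonic array. Of the chemokine ligands, 8 higher and 4 lower of 14 measured (median 1.97), Ccl4 was at least 59.7-fold higher, Cxcl16 at least 22.4-fold higher and Ccl7 at least 21.8-fold higher. Cxcl12, Ccl27a and Cx3cl1 were 2.55-fold, 2.64-fold and at least 4.69-fold lower. Of the 3 chemokine ligands detected in both arrays, 1 was higher and 2 lower, with a median of -1.35. Interleukins and their receptors had 12 higher and 0 lower of 27 measured (median 0.72) and included Il6 at 1866.9 in the neonatal and 72.4 (not detected) in the embryonic array. NF-κB genes had 5 higher and 0 lower of 11 measured (median 0.83), with the inhibitors Nfkbiz and Nfkbia 8.71-fold and 5.06-fold higher and the subunit Rela 2.78-fold higher. FOS, JUN and EGR genes, which answer to stress and growth signals within minutes, had 8 higher and 1 lower of 13 measured (median 1.54). Junb read 3490.6 ± 131 in the neonatal array, against 438.9 ± 22.3 in the embryonic array, Fosb was 5.43-fold higher and Fos 3.12-fold higher, while Jun and Atf3 differed by 0.18 and 0.55, and Egr4 was 4.29-fold lower. Interferon regulatory factors had 4 higher and 0 lower of 7 measured (median 1.11), with Irf8 of macrophages at least 24.1-fold higher.

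MHC genes, which present peptides to T cells, had 10 higher and 0 lower of 14 measured (median 1.47). Of the 7 detected in both arrays, 3 were higher and 0 lower (median 0.69). The class I gene H2-D1 was at 8156.1 in the neonatal and 540.9 in the embryonic array, and its light chain B2m at 16566.7 in the neonatal and 2103.2 in the embryonic array. Interferon-inducible genes had 9 higher and 0 lower of 18 measured (median 1.08), with the antiviral membrane proteins Ifitm3, Ifitm1 and Ifitm2 at least 93.2-fold, 12-fold and 6.54-fold higher. Of the 5 genes of this list detected in both arrays, 4 were higher and 0 lower. Classical interferon targets such as Isg15, Rsad2 and Usp18 did not reach a 2-fold bound. Complement genes had 9 higher and 1 lower of 14 measured (median 2.56), with C3 at least 42-fold higher, and Masp1, a protease of the lectin pathway, the only one lower, at 252.4 in the neonatal and 965.8 in the embryonic array. Their median over the members detected in both arrays was -0.04. Fcgrt, the receptor that recycles IgG, was 58.1-fold higher. Lysosomal hydrolases and membrane proteins had 10 higher and 1 lower of 25 measured (median 0.84), with Arsb and Arsa, for arylsulfatases, 6.16-fold and 5.16-fold higher, and Gaa, the acid glucosidase that degrades glycogen, 2.04-fold lower.

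Transcription factor families with cardiac regulators differed in direction. In the list of cardiac regulators with MEF2 and SRF, 0 higher and 5 lower of 8 measured (median -1.63), Nkx2-5 had a raw signal of 201.4 ± 11.8 in the neonatal array, against 1959.8 ± 96.9 in the embryonic array. Smyd1, a muscle methyltransferase, was at 4500.2 in the neonatal and 21402.1 in the embryonic array, Myocd, the SRF co-activator myocardin, at 1555.6 in the neonatal and 4790.1 in the embryonic array, and Isl1, of the second heart field, was at least 4.64-fold lower. Mef2c differed by -0.41 ± 0.052. GATA genes had 0 higher and 0 lower of 6 measured (median -0.28), and Gata4 and Gata6 differed by -0.29 ± 0.082 and -0.27 ± 0.083. T-box genes had 2 higher and 1 lower of 6 measured (median 0.70). Tbx5, a T-box regulator of atria and left ventricle, was 3.20-fold lower and Tbx2, of the atrioventricular canal, 2.09-fold higher, while Tbx20 and Tbx3 differed by 0.43 and -0.60. Irx3, Irx4 and Irx5, Iroquois genes of the ventricle, lay close to each other in their differences, which gave 8.74-fold, at least 9.71-fold and 8.52-fold lower. Their raw signals were 146.2 in the neonatal and 732.7 in the embryonic array for Irx3, 99.9 (not detected) in the neonatal and 673.2 in the embryonic array for Irx4 and 148.4 in the neonatal and 727.5 in the embryonic array for Irx5. The orphan nuclear receptors Esrrb and Esrrg, activators of mitochondrial genes, were 11.7-fold and at least 25.3-fold lower.

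The nuclear factor I genes, which favour differentiation over growth in several tissues, were higher in each of the 4 measured members. Nfix was at 14419.8 ± 542 in the neonatal array, against 225.3 ± 10.4 in the embryonic array, Nfic at 4478.5 ± 126 in the neonatal array, against 354.7 ± 15 in the embryonic array, Nfia at 1048.7 ± 40.3 in the neonatal array, against 164.1 ± 8.27 in the embryonic array and Nfib at 12763.8 ± 457 in the neonatal array, against 3889.1 ± 168 in the embryonic array. Cbfb, the RUNX partner in the same list, differed by 0.35 ± 0.062. Krüppel-like factors had 8 higher and 1 lower of 16 measured (median 0.75). Klf2, the flow-induced factor of endothelium, was 40.2-fold higher, Klf4 and Klf9 9.30-fold and 8.98-fold higher, and Klf1 of erythroid cells at least 3.64-fold lower. The list of TEAD, TWIST and SNAI genes had 7 higher and 1 lower of 14 measured (median 0.81). Over its members detected in both arrays the median was -0.10. Of this list, Snai2 was at least 19.1-fold higher and Twist2 at least 18.7-fold higher, against Prrx2 5.09-fold lower. Sox9, of valve and cartilage precursors, was 43.2-fold higher, and Sox11, of embryonic progenitors, 4.53-fold lower. Foxs1, a forkhead gene of pericytes, was at least 49.8-fold higher. Hox genes were nearly undetected, with 3 of 42 measured, of which Hoxb2 was 5.35-fold higher.

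Large families of chromatin and DNA-binding genes lay close to 0. Of the Zfp zinc finger genes, mostly repressors of the KRAB type, 204 of 338 were measured, and 7 were higher and 17 lower, or 3.43% and 8.33%, against 17.6% and 17.2% of all measured genes. Histone genes had 1 higher and 4 lower of 43 measured (median -0.15), with H2ac18 the highest at 1.05 and H2ac15 the lowest at -1.24. Histone demethylases had 1 higher and 0 lower of 19 measured (median -0.30). Other chromatin families had members at least 2-fold apart. Hmga1, a high-mobility-group gene of proliferating embryonic cells, read 513.0 ± 17.6 in the neonatal array, against 3480.6 ± 98.3 in the embryonic array and Hmgn5 was 4.56-fold lower. Ezh2, the methyltransferase of Polycomb, was 2.59-fold lower, Dnmt1, which copies DNA methylation, 2.13-fold lower, and Arid3b 5.56-fold lower. Hdac7, a class IIa deacetylase of endothelium, was at least 10.3-fold higher and Hdac9 of muscle at least 3.49-fold lower. Smarcd2 and Smarcd3, alternative subunits of the SWI/SNF remodeller, differed by 2.41 and -0.98.

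**Figure D4:**
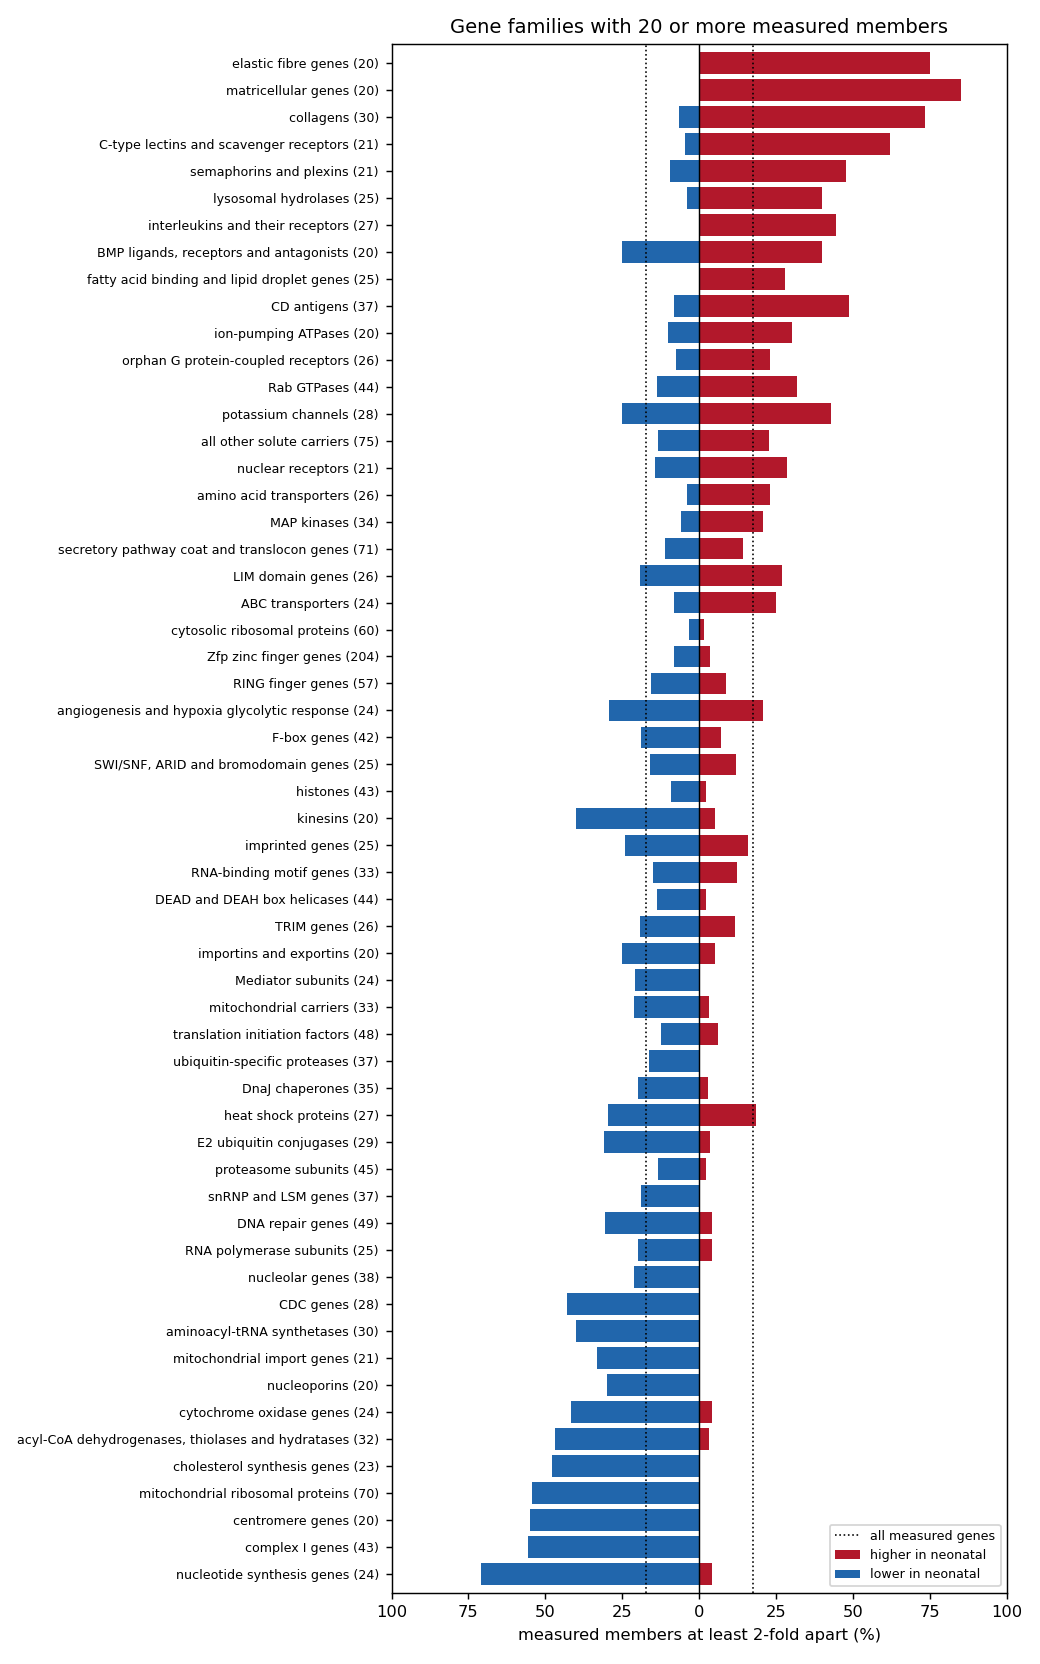
For the families plotted, each with 20 or more measured members (number in brackets), the share of members with a neonatal signal 2-fold or more above (red, to the right) or below (blue, to the left) the embryonic one, ordered by median difference; dotted lines mark the shares over all measured genes, 17.6% higher and 17.2% lower. Matrix families stand at the top with up to 85.0% of members higher, and nucleotide synthesis, complex I, centromere and mitochondrial ribosomal genes at the bottom with over 50% lower.

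Many genes of cell division were lower. Centromere genes, which build the platform on which kinetochores form, had 0 higher and 11 lower of 20 measured (median -1.13), against 17.2% of all genes lower. Cenpw and Cenpx were 4.12-fold and 4.09-fold lower, and Cenpb, which binds centromeric satellite DNA in all phases, differed by 0.83. Of the cyclins, 3 higher and 6 lower of 19 measured (median -0.44), the mitotic Ccnb1 read 934.7 ± 38.4 in the neonatal array, against 5481.6 ± 186 in the embryonic array and Ccna2 was at 133.5 in the neonatal and 388.0 in the embryonic array. The S phase cyclins Ccne1 and Ccne2 were 5.33-fold and at least 7.24-fold lower. The D cyclins, which link growth signals to the cycle, lay apart from each other, since Ccnd3 was 8.18-fold lower and Ccnd1 and Ccnd2 differed by 0.84 and -0.53. Cdk1, the mitotic kinase, was 4.19-fold lower, and Cdk4 and Cdk2 differed by 0.40 and -0.72. The list of cyclin-dependent kinase inhibitors had 2 higher and 1 lower of 9 measured (median -0.45). Cdkn1a and Cdkn2c were 2.35-fold and 2.54-fold higher, and Cdkn2d was lower, with a log2 difference of -1.31. Gmnn, which blocks re-licensing of replicated DNA, and Cdt1, the licensing factor that it binds, were 5.14-fold and 4.89-fold lower. In the MCM and ORC list, 0 higher and 6 lower of 16 measured (median -0.87), Mcm7 was lower, with a log2 difference of -1.63 and the origin recognition gene Orc4 differed by 0.28. The kinesins that were lower included the chromosome motors Kif4 and Kifc1 as well as Kif26b and Kif21a, which were 2.71-fold, 2.50-fold, 12.2-fold and at least 10.1-fold lower. Mitotic kinases and checkpoint genes had 1 higher and 8 lower of 19 measured (median -0.89), with Aurka at 742.4 in the neonatal and 2786.6 in the embryonic array and Plk1 at 1202.3 in the neonatal and 4065.9 in the embryonic array. Plk3, a stress-induced polo kinase, was 16.8-fold higher.

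Promoters from RefSeq (GRCm38.p6) are shown for 4 genes of lists that were lower, from 250 bases before to 50 after the annotated start, to set sequence beside these values. Each shown gene has the lowest difference, or the next lowest for Plk1, among the members of its list with a match to the motif named. Capitals mark the match, on either strand, and a match is a description only. For Aurka (chr2:172370521-172370820, minus strand) and Plk1 (chr7:122159185-122159484, plus strand), the motif searched was TTTGAA, the cell cycle homology region core of many mitotic genes. For Hsd17b7 (chr1:169969156-169969455, minus strand), of cholesterol synthesis, it was CCAAT, the letters bound by NF-Y, which appear as ATTGG on the printed strand. For Mrpl44 (chr1:79775768-79776067, plus strand), of the mitochondrial ribosome, it was the palindrome of NRF1, which reads GCGC, any base, then TGCGC.
Aurka: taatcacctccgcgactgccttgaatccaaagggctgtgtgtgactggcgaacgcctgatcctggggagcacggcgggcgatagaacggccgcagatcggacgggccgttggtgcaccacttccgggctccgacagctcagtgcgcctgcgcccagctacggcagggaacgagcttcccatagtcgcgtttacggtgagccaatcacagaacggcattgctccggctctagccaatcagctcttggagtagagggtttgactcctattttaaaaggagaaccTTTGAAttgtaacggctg
Plk1: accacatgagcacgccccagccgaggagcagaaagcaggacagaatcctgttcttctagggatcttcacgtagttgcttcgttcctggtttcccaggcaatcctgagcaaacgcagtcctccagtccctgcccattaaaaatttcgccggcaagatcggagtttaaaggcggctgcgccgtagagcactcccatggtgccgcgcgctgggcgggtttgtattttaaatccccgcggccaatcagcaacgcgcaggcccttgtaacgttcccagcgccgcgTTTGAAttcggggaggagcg
Hsd17b7: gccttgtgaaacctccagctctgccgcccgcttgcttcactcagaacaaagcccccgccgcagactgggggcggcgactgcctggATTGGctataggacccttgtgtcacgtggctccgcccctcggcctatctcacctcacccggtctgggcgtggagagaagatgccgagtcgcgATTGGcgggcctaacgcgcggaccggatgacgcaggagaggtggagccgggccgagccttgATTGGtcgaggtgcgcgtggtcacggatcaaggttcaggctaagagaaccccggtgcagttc
Mrpl44: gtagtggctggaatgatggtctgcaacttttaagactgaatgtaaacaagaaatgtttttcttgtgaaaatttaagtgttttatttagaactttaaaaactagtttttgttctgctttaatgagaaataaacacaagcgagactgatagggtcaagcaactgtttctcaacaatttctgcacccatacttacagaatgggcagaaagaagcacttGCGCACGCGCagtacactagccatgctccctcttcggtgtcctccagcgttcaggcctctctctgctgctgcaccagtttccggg
TTTGAA was present in 30.8% of 26 promoters of mitotic kinases and checkpoint genes, against 15.3% of all 16461 promoters. CCAAT was present in 88.9% of 18 promoters of cholesterol synthesis genes, 66.7% of 21 promoters of centromere genes and 34.3% of 35 collagen promoters, against 38.4% of all. The NRF1 palindrome was present in 19.4% of 67 promoters of mitochondrial ribosomal proteins, 22.5% of 40 promoters of complex I genes and 10.6% of 47 promoters of cytosolic ribosomal proteins, against 6.91% of all. CCGGAAG, the core bound by ETS factors such as GABP, was present in 37.3% of the mitochondrial and 36.2% of the cytosolic ribosomal promoters and in 6 of the 40 complex I promoters, against 12.3% of all and 0 of the 35 collagen promoters. Both strands were searched for each of these 4 motifs, none of which contains another.

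Nuclear genes for mitochondrial proteins were lower across most of their families, as was the summed raw signal of the cardiomyocyte markers given above, and the part of cell makeup in this was not tested. Complex I, the NADH dehydrogenase that feeds electrons into the chain, had 0 higher and 24 lower of 43 measured (median -1.15). Its subunit gene Ndufb11 read 157.6 ± 7.58 in the neonatal array, against 413.3 ± 16.1 in the embryonic array, and Ndufb10 differed by -0.10. Ndufaf7, an assembly factor, was 7.63-fold lower. Complexes II and III had 0 higher and 9 lower of 12 measured (median -1.17), cytochrome oxidase genes 1 higher and 10 lower of 24 measured (median -0.91) and ATP synthase genes 0 higher and 3 lower of 15 measured (median -0.75). The oxidase family held exceptions among its tissue isoforms. Cox4i2, the isoform of lung and hypoxic cells, was at least 5.89-fold higher, while the common Cox4i1 differed by -0.07. The heart isoform genes Cox7a1 and Cox6a2 were lower, with log2 differences of -1.71 and -1.32, and Cox8b differed by 0.67. Cox17, a copper chaperone, was 3.99-fold lower. Coenzyme Q genes had 0 higher and 5 lower of 10 measured (median -1.15), and mitochondrial import genes 0 higher and 7 lower of 21 measured (median -0.78) with Tomm40, the outer membrane pore, at 137.8 in the neonatal and 437.2 in the embryonic array.

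The regulators that maintain mitochondria were lower too, with 0 higher and 8 lower of 13 measured (median -1.14). Ppargc1a, the co-activator PGC-1α, had a raw signal of 301.1 ± 12.6 in the neonatal array, against 1427.8 ± 55.7 in the embryonic array. Opa1, which fuses inner membranes, was at 137.2 in the neonatal and 316.0 in the embryonic array, and Tfam, which packages mitochondrial DNA, at 786.5 in the neonatal and 1788.1 in the embryonic array. Polg, the mitochondrial DNA polymerase, differed by -0.15 ± 0.14. In fatty acid oxidation, 1 of 32 measured members were higher and 15 lower, with a median difference of -0.96. Acadl and Hadh, of different steps of the spiral, were 8.80-fold and 8.68-fold lower, and Cpt1b, the muscle gate for fatty acid entry, 5.91-fold lower. Acadvl, for the very long chain enzyme, differed by -0.08.

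Translation separated by compartment. Mitochondrial ribosomal proteins had 0 higher and 38 lower of 70 measured (median -1.03), whereas cytosolic ribosomal proteins had 1 higher and 2 lower of 60 measured (median -0.04). The largest mitochondrial differences were those of Mrps18b at 254.3 in the neonatal and 897.8 in the embryonic array and Mrpl44 at 287.6 in the neonatal and 911.2 in the embryonic array, whose promoter is printed above. The members of that list closest to the other side were Mrpl17, Mrpl20 and Mrpl52, at 0.38, 0.09 and 0.06. The cytosolic exceptions were Rps13, higher, with a log2 difference of 1.52 ± 0.10, and Rps4l and Rps15a, lower, with log2 differences of -2.40 and -1.52, and such genes have many near-identical pseudogenes that a probe may also bind. The same split was seen in the aminoacyl-tRNA synthetases, which load amino acids onto tRNA. Those of mitochondria had 0 higher and 9 lower of 13 measured (median -1.13) and those of the cytosol 0 higher and 3 lower of 18 measured (median -0.25), among them Dars at 295.7 in the neonatal and 899.6 in the embryonic array. Of the elongation factors, the mitochondrial Gfm1, Tsfm, Gfm2 and Tufm were lower, with log2 differences of -2.60, -1.86, -1.72 and -1.12. The cytosolic Eef1a1 and Eef2 differed by -0.06 and 0.27, and the muscle isoform Eef1a2 was 3.63-fold lower. Eif4a2, for an initiation helicase, was 6.28-fold lower.

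Glycolysis genes were lower as a family, with 0 higher and 15 lower of 17 measured (median -1.69). The 2 measured members that were not lower by 2-fold were Gapdh and Pfkm. The phosphofructokinase genes Pfkp and Pfkl were 6.81-fold and 6.64-fold lower and the muscle form Pfkm differed by -0.98. Aldoa read 5531.2 ± 284 in the neonatal array, against 25739.9 ± 1189.5 in the embryonic array, and Pgam1 was at 366.4 in the neonatal and 1258.1 in the embryonic array. Gapdh differed by -0.57 ± 0.062. Glucose and lactate transporters had 3 higher and 4 lower of 11 measured (median 0.39). Slc16a9, Slc2a13 and Slc2a10 were higher, with log2 differences or bounds of 2.28, 1.87 and 1.03. Among the lower ones, Slc2a1, the glucose transporter of embryonic heart, had a raw signal of 1278.7 ± 41.7 in the neonatal array, against 12337.6 ± 604 in the embryonic array. Slc2a3 was at 771.2 in the neonatal and 3062.5 in the embryonic array. Slc2a4, the insulin-sensitive transporter of adult muscle, was detected in the embryonic array alone and was at least 3.23-fold lower. Pdk1 and Pdk3, kinases that inhibit pyruvate dehydrogenase, were 8.67-fold and 5.80-fold lower.

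Nucleotide synthesis genes had 1 higher and 17 lower of 24 measured (median -1.38), the largest share lower among families with 20 or more measured members. Rrm2, the ribonucleotide reductase subunit of S phase, read 604.8 ± 36.4 in the neonatal array, against 3197.7 ± 99.2 in the embryonic array, Umps, of pyrimidine synthesis, was at 217.3 in the neonatal and 990.2 in the embryonic array, and Impdh1, of guanine nucleotide synthesis, was 2.39-fold higher. Serine and one-carbon genes had 0 higher and 8 lower of 16 measured (median -0.99). Mthfd1, a folate enzyme that serves purine and thymidylate synthesis, was at 129.9 in the neonatal and 572.5 in the embryonic array, and Shmt1 and Ftcd were 4.18-fold and 12.7-fold lower. Cholesterol synthesis genes had 0 higher and 11 lower of 23 measured (median -0.99). Hsd17b7 was at 979.9 in the neonatal and 3434.2 in the embryonic array and Sqle at 935.0 in the neonatal and 2536.2 in the embryonic array, and the sensor gene Scap differed by 0.22. Cytochrome P450 genes, with 15 of 80 measured, had Cyp2d22 10.6-fold higher and Cyp1b1 at least 3.98-fold higher. Of the aldehyde dehydrogenases, the retinoic acid-forming Aldh1a1, Aldh1a2 and Aldh1a3 were at least 28-fold, at least 9.21-fold and at least 2.56-fold higher, while the mitochondrial Aldh1b1 and Aldh5a1 were 6.76-fold and 3.56-fold lower.

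Ion channel and junction families had members in both directions. Potassium channels had 12 higher and 7 lower of 28 measured (median 0.24). Of the 12 members detected in both arrays, 3 were higher and 6 lower, with a median of -0.68. Kcnk2, a stretch-sensitive channel, was at least 46-fold higher and Kcnj8, of the ATP-sensitive channel in vessel walls, at least 9.59-fold higher. Kcne1 and Kcnh2, which make up parts of the slow and rapid delayed rectifiers, were at 741.4 in the neonatal and 2877.0 in the embryonic array for Kcne1 and 404.9 in the neonatal and 1193.2 in the embryonic array for Kcnh2. Kcnd2, of the transient outward current, was at least 9.39-fold lower. Cacna1c and Cacnb2, subunits of the L-type calcium channel, were 4.46-fold and 7.52-fold lower, and Cacna1h, of the T type, 5.02-fold lower. Cacna1g, the other T-type gene, was at least 5.32-fold higher, and Scn7a 8.89-fold higher. The calcium pump Atp2a2 of the cardiac sarcoplasmic reticulum differed by -0.85 ± 0.075, its relative Atp2a3, of blood and endothelial cells, was 25.1-fold higher, and Atp2a1 of fast skeletal muscle at least 6.86-fold lower. Slc8a1, the sodium-calcium exchanger, read 1980.9 ± 70.4 in the neonatal array, against 9460.8 ± 323 in the embryonic array. The connexin genes Gja1 and Gja5 of heart muscle were 2.79-fold and 5.53-fold lower. Gjc1 differed by -0.12 and Gja4 was at least 19.4-fold higher. The water channels Aqp1 and Aqp4 stood at 4152.3 in the neonatal and 327.0 in the embryonic array for Aqp1 and 147.5 in the neonatal and 1043.4 in the embryonic array for Aqp4.

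Most families of RNA processing had few members higher. Exceptions were CUG-BP, muscleblind and RNA-binding fox genes, with 3 higher and 5 lower of 14 measured (median 0.09). SR splicing factors had 2 higher and 1 lower of 11 measured (median -0.29). Rbm20, which sets the splicing of titin, read 929.1 ± 41 in the neonatal array, against 5709.1 ± 187 in the embryonic array, and Rbm24, another muscle splicing factor, was at least 5.45-fold lower. Ptbp1, the widespread polypyrimidine tract-binding protein, was 3.05-fold higher, and its paralog Ptbp2 was at 168.1 in the neonatal and 715.6 in the embryonic array and 7.03-fold lower. Qk, for quaking, and Celf1 were 4.60-fold and 2.67-fold lower, and Mbnl1 and Rbfox2 differed by 0.76 and -0.12. The hnRNP list had 0 higher and 3 lower of 14 measured (median -0.38), the lower ones including Hnrnpa2b1 at -2.64 and Hnrnpk at -2.15. The snRNP and LSM genes had 0 higher and 7 lower of 37 measured (median -0.48), nucleoporins 0 higher and 6 lower of 20 measured (median -0.86) and nucleolar genes 0 higher and 8 lower of 38 measured (median -0.67). Nup210, a pore protein of differentiating muscle, was 8.05-fold lower. Mediator subunits had 0 higher and 5 lower of 24 measured (median -0.27) and DEAD and DEAH box helicases 1 higher and 6 lower of 44 measured (median -0.22).

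Most families of protein folding and breakdown had few members higher. Proteasome subunits had 1 higher and 6 lower of 45 measured (median -0.48), and Psmb8, the inducible subunit of immune cells, was at least 8.69-fold higher. The TRiC chaperonin, which folds actin and tubulin, had 0 higher and 5 lower of 11 measured (median -0.70), with Cct3 at 1002.0 in the neonatal and 3917.2 in the embryonic array. Ubiquitin ligases of striated muscle were lower, as Trim63 was at least 8.10-fold lower, Trim54 3.93-fold lower and Fbxo40 at least 4.16-fold lower, and Fbxo32, atrogin-1, read 139.7 ± 7.45 in the neonatal array, against 296.5 ± 16.5 in the embryonic array. Fbxw5 was detected in the embryonic array alone (neonatal 92.3 (not detected), embryonic 2563.0) and was at least 37.3-fold lower. E2 ubiquitin conjugases had 1 higher and 9 lower of 29 measured (median -0.43). Heat shock proteins were an exception with 5 higher and 8 lower of 27 measured (median -0.41). Among them Hspa12b of endothelium was 12.3-fold higher, Hspa9 of the mitochondrion 4.91-fold lower, and Hspb8 and Hspb7 5.37-fold and 3.72-fold lower.

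Embryonic globin genes were detected in the embryonic array alone. Of the hemoglobin genes, the embryonic Hbb-y, Hba-x and Hbb-bh1 had raw signals of 61.6 (not detected) in the neonatal and 10774.9 in the embryonic array for Hbb-y, 57.8 (not detected) in the neonatal and 10102.8 in the embryonic array for Hba-x and 65.6 (not detected) in the neonatal and 9768.3 in the embryonic array for Hbb-bh1. They were at least 155-fold, at least 145-fold and at least 140.3-fold lower. Among the adult-type genes, whose near-identical copies a probe may not separate, Hbb-b1, Hbb-b2 and Hba-a1 differed by 0.65, -0.39 and -0.97. Slc4a1, the anion exchanger of the red cell, was 20.2-fold lower, Tmod1, which caps actin in red cells and muscle, 10.2-fold lower, and Tfrc, the transferrin receptor, read 479.5 ± 20.7 in the neonatal array, against 2898.3 ± 162 in the embryonic array. Hmox1 and Slc40a1, of heme breakdown and iron export, were 5.51-fold and 4.17-fold higher.

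Several probes of a gene did not always give the same answer. Of 2046 genes with several probes detected in both arrays, all detected probes had the same sign in 68.8%, and the median range between probes of a gene was 0.62. In 34 genes a probe was at least 2-fold higher and another at least 2-fold lower. Tpm2 had probes at 2.97 and -3.11, and Actb, for cytoplasmic β-actin, had probes from -3.10 to 2.09. Pdlim7, a LIM protein of the Z-disc, had probes at 3.90 and -2.26, Ybx3, a cold shock domain protein, from -1.94 to 4.46, and Lamp2, of the lysosomal membrane, from -3.03 to 1.99. Camk2d, Gnas and Grb10 were in the same group. The table paired no probe with its sequence or exon, so the transcript that each probe reads is not given here. Among the other genes named in the text, further probes of the opposite sign had farthest differences of 0.41 for Acta2, 0.00043 for Aldh5a1, -1.70 for Cdk4, 1.47 for Ccnd2, 0.08 for Cenpx, -1.94 for Eef2, 0.67 for Eif4a2, 0.70 for Hnrnpa2b1, -0.98 for Orc4, -0.40 for Plod3 and 0.92 for Slc8a1.

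**Figure D5:**
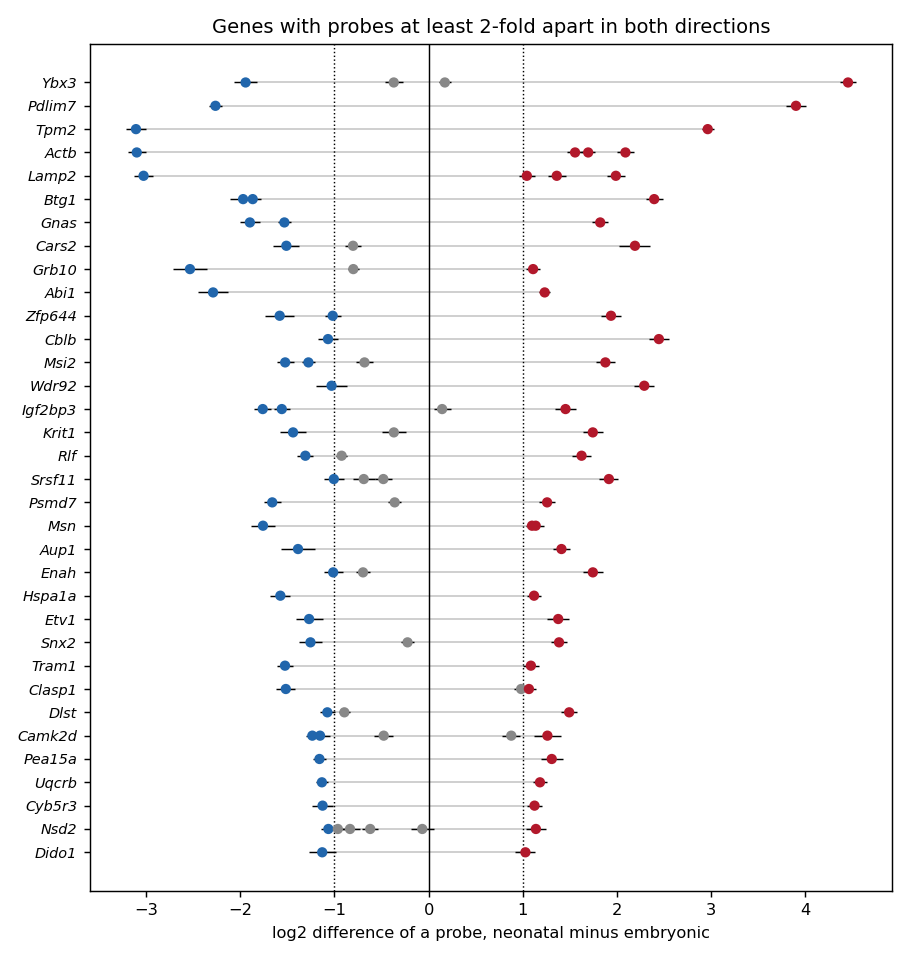
Log2 difference of each detected probe (points, with bead standard error) for the 34 genes with probes at least 2-fold apart in opposite directions. Ybx3, Pdlim7, Tpm2, Actb and Lamp2 span the widest ranges, from -3.11 to 4.46.

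Classes taken from the words of the probes' definitions, which overlap the families above, gave counts of probes. Over all member probes, 15.9% were higher and 19.0% lower. Probes whose definition names the mitochondrion had 6 higher and 214 lower of 419 (median -1.02), and those of ribosomal genes 1 higher and 64 lower of 227 (median -0.45), which covers both compartments. Definitions with lectin had 16 higher and 1 lower of 37 (median 0.65), sulfotransferase 11 higher and 1 lower of 22 (median 0.97), glycosyltransferase 22 higher and 7 lower of 90 (median 0.30) and interferon 18 higher and 0 lower of 41 (median 0.66). Kinase definitions had 77 higher and 124 lower of 533 (median -0.25), zinc finger 21 higher and 58 lower of 395 (median -0.15) and receptor 132 higher and 61 lower of 507 (median 0.19). Probes of RIKEN cDNA genes, many without a described function, had 102 higher and 209 lower of 1006 (median -0.28), and WD repeat proteins 2 higher and 21 lower of 84 (median -0.47).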

How the data were processed

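RNA from neonatal and embryonic cardiomyocyte preparations was measured with 1 array each. The authors deposited raw probe intensity, on a linear scale and with no background subtracted, with the spread between beads, the bead number and a detection score given as a fraction, per the file headers. No source used here names the scanner software or array version. Processed intensity that the authors deposited in a further matrix was used only as an alternative. The depth of an array is its beads, a median of 37 per probe, and 1 array per age limits the precision.

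Intensity was background corrected from the detection p (1 minus the score) with neqc of limma 3.58.1 (R 4.3.3), with an offset of 16 and quantile normalization over the 3 arrays of the series. The offset draws dim differences towards 0. The lowest detected log2 level was 5.93 in the neonatal and 6.27 in the embryonic array. Genes were named through RefSeq GRCm38.p6 by accession, then symbol or synonym. Of the member probes 14685 were named, 2206 were not, and 76 with conflicting names were left out. Each gene was read from its probe with the highest mean of both normalized signals. No p-value was computed. The scripts that normalize and make the calls were tested on simulated data. Sequences came from RefSeq promoters.

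The 189 symbol families and 46 definition classes, the marker lists and the comparison itself were chosen with earlier results of these data known, and family patterns were corrected by gene name after the files were read. Genes named are the 15 largest increases and decreases detected in both arrays, the 10 largest bounds in each direction, up to 4 members at each end of a family (all members of families of up to 12), the 10 brightest genes under 0.1, genes with discordant probes, and markers. Other genes named were chosen after their values were seen. A few genes and lists are not reported here.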

Additional observations from a re-analysis of the deposited data

How the results depend on the processing

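Of the counts of 1854 genes higher and 1820 lower, requiring detection in both arrays gave 1177 higher, a 3-fold threshold 1118 higher and 859 lower, and a 1.5-fold threshold 3133 lower. The first of these tests fewer genes by construction and the others move the threshold. Counts under the other alternatives (median centring, quantile normalization over the 2 arrays, no background correction, an offset of 50, the mean over probes, no detection filter, the authors' processed values floored at 16, and differences over 2 bead standard errors) stayed within 1.5 times. Of 53 lists with a median of at least 1 in size, 53 kept their sign under 6 of these settings, 45 of 48 did with detection in both arrays and 52 of 53 with no detection filter. Fewer of these medians stayed at least 1 in size, 26 of 53 with no detection filter, 35 of 48 with detection in both arrays, 44 of 53 with no background correction, 45 with the offset of 50 and 49 with median centring. Differences of named genes moved beyond their bead interval in 581 cases with median centring, 497 with no background correction and 383 with the offset of 50. The lists that turned were myosin heavy chains (-0.85), chemokine ligands (-1.35) and complement genes (-0.043) with detection in both arrays, and cytochrome P450 genes (-0.012) with no filter, and for the first 3 these are the members left once genes seen in 1 array are dropped. No paired analysis was possible because each age has 1 array. With 1 array per age, none could be left out, and bead error limits only the precision of an array. Dim genes near log2 5.93 in the neonatal and 6.27 in the embryonic array have bounds only.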

Other observations

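Few receptor genes of sensory neurons were measured. Of 1020 olfactory receptor genes on the array, 16 were measured, 3 higher and 0 lower in the neonatal array. The share higher, 18.75%, lay near the 17.6% of all measured genes. Of the 9 members detected in both arrays, 0 were higher and 0 lower. Of 163 vomeronasal and 36 taste receptor genes none was measured, and of 48 defensin genes 1 was. Olfr78, an olfactory receptor also known from blood vessels, was at least 3.24-fold higher (neonatal 387.7, embryonic 47.6 (not detected)), and Olfr1036 was at least 7.89-fold higher.

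Imprinted genes, expressed from a single parental copy, had 4 higher and 6 lower of 25 measured (median -0.20). Dlk1 read 17545.7 ± 332 in the neonatal array, against 825.8 ± 24.3 in the embryonic array and Meg3, the maternal RNA of the same domain, was at 4726.8 in the neonatal and 793.6 in the embryonic array, with Rian at least 7.01-fold higher. H19 differed by -0.18 and Igf2 by -0.20, while Igf2r, Mest and Asb4 were 4.10-fold, 2.08-fold and 2.87-fold lower.

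By chromosome, the share of measured genes that were higher ran from 13.8% on chromosomes 8 and X to 22% on chromosome 15, and the share that were lower from 14.1% on chromosome 19 to 21.7% on chromosome 6. Xist and Y-linked transcripts were detected in both pools. The brightest probe of Xist, of the inactive X, read 2295.4 in the neonatal array, against 633.9 in the embryonic array. The Y-linked Eif2s3y read 1802.5 in neonatal and 1318.6 in embryonic, and Kdm5d 211.2 in neonatal and 194.1 in embryonic.

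Probes that matched no RefSeq name also held wide differences. LOC98434 read 6353.1 in neonatal and 97.7, not detected, in embryonic. In the other direction HAK-PENDING read 276.8 in neonatal and 4836.2 in embryonic, and ERAF, defined in the file as erythroid associated factor, 98.9, not detected, in neonatal and 1053.9 in embryonic.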
